A study of Homo sapiens with 6 samples.

Results

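The E2F transcription factors and the RB pocket proteins were examined in RNA-seq of cells labelled PANC1, a human pancreatic carcinoma line. The 10 genes were taken by name, as a gene family and its regulators, and no threshold on a measured value was part of the rule: E2F1, E2F2, E2F3, E2F4, E2F5, E2F6, E2F7 and E2F8, and the pocket proteins RB1 and RBL1. All 10 were among the 20461 genes of the expression table and among the 14854 genes tested. Cells received vehicle (0.1% DMSO) or 50 nM gemcitabine for 48 h, with 2 RNA libraries per condition, and DNaseI-seq, which maps open chromatin, was done with 1 library per condition. All libraries came from the same unmodified line and carried no further agent or allele in the labels. The study screened for kinase inhibitors that increase killing by gemcitabine, a cytidine analogue that stalls replication forks, and these libraries supplied the expression and chromatin changes that its network model took as input.

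E2F proteins bind the promoters of genes for DNA replication and cell cycle entry, most of them as dimers with a DP partner. E2F1, E2F2 and E2F3 are known mainly as activators, E2F4 and E2F5 as repressors that act with the pocket proteins p107 (RBL1) and p130 (RBL2), E2F6 as a repressor within a Polycomb-type complex, and E2F7 and E2F8 as atypical repressors that bind without DP. RB1 holds the activators silent until cyclin-dependent kinases phosphorylate it. Most pancreatic carcinomas lose the kinase inhibitor p16, encoded by CDKN2A, rather than RB1.

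Several E2F genes and RBL1 are themselves known E2F targets, so their reference promoters are shown for the letters of an E2F site. Promoters from RefSeq (GRCh38.p14, 250 bases before to 50 bases after each annotated start) were found for 8 of the 10 genes, and E2F5 and E2F8 had no entry. The 4 words TTTCGCGC, TTTGGCGC, TTTCCCGC and TTTGCCGC were searched on both strands. At least 1 of them was in 3.31% of the 35116 promoters of the reference table. Among the members, E2F1, E2F2, E2F3 and RBL1 held such words, and the windows of E2F4, E2F6, E2F7 and the RB1 entry did not. The RB1 entry lies at an internal start within the gene and not at the start used most for RB1. E2F1 and RBL1 had 2 words each, within 33 bases of the start. The last 120 bases before the start are given 5′ to 3′ on the strand of the gene, with the E2F words in capitals.
E2F1, chr20:33686386-33686505, minus strand: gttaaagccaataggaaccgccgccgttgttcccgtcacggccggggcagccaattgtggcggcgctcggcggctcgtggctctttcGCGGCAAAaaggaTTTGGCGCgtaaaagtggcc
RBL1, chr20:37095998-37096117, minus strand: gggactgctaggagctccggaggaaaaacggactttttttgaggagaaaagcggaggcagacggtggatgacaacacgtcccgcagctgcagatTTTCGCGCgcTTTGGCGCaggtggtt
E2F2, chr1:23531234-23531353, minus strand: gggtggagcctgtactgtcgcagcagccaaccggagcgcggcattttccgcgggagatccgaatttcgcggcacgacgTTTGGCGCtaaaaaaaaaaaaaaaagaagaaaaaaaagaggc
E2F3, first of its promoter entries, chr6:20401759-20401878, plus strand: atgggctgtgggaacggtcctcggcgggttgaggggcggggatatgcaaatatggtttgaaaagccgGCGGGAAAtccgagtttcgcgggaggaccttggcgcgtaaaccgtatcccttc
The E2F3 window also held TTTGAA, 65 bases before the start. TTTGAA and TTCGAA, the words of the CHR element bound by the DREAM complex, were in 16.4% of all promoters and in no other member's window, and they overlapped none of the E2F words in the members. A word is a match of letters and not a measured binding site.

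The libraries held 13194533 to 15766237 fragments assigned to genes, so a count of 3 fragments corresponded to 0.190 to 0.227 CPM (counts scaled to the total of the library). The members had from 133 fragments (E2F5) to 3066 fragments (RB1) in a library, far above that floor. Of all tested genes, 5726 passed an adjusted p of 0.05 (edgeR quasi-likelihood test, Benjamini-Hochberg), with 18.5% of tested genes higher and 20.0% lower after gemcitabine. With library totals in place of TMM scaling the median of all genes moved from 0.01 to 0.12 (log2) and the share of calls that were higher from 48.04% to 67.3%, so the fold changes below are relative to the TMM scale. Without vehicle replicate 1 the number of calls over all genes was 2746 and without vehicle replicate 2 it was 2609. Replicates of a condition differed by more than counting error, as the chi-square of a gene averaged 2.17 between the vehicle libraries and 5.16 between the gemcitabine libraries, where counting error gives about 1. In bulk RNA a lower level in every cell and fewer cells with the transcript, such as cells of 1 cell cycle phase, cannot be told apart.

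The identity of the cells bears on this pathway. KRT7 (1491 to 1658 FPKM), KRT8, KRT18 and VIM (385 to 476 FPKM) were high in every library, while the ductal marker KRT19 stood at 3.05 to 6.91 FPKM and EPCAM at 2.09 to 4.29 FPKM. Acinar, endocrine, leukocyte and endothelial markers were all under 1 FPKM. Of the 4 fibroblast markers, COL1A1 was at 864 to 1100 FPKM, DCN and LUM were under 10 FPKM, and COL1A2 was at 0 to 0.101 FPKM. PANC1 is generally described as having lost CDKN2A by homozygous deletion. In these libraries CDKN2A had 6219 and 6052 fragments in vehicle and 5497 and 5106 in gemcitabine, or 634 to 739 FPKM, and both DNaseI peak lists held a peak over a CDKN2A start (vehicle chr9:21994087-21995670 with a score of 67.7, gemcitabine chr9:21994097-21995719 with a score of 66.4, hg19). CDKN2A thus went against the label in every RNA library and in both peak lists, and the cells are called here by their label only. Fragments were counted over the whole gene, and the peak was the closest to any of its annotated starts. Whether the transcript for p16 was among those present was not tested.

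After gemcitabine 5 of the 10 genes fell and none rose (edgeR; 0 were higher at an unadjusted p under 0.05, also with DESeq2). E2F1 and E2F5 fell to about 52% of vehicle, RBL1 and E2F2 to 72.3% and 74.7%, and E2F4 to 85.5%. E2F3, E2F6, E2F7, E2F8 and RB1 did not pass the test. The background is 20.0% of all tested genes lower and 18.5% higher at the same threshold, and the 10 genes had a median log2 change of -0.15 against 0.01 over all tested genes. The 5 that fell were also the members whose conditions did not overlap in CPM, a pattern that 34.7% of all tested genes showed in the same direction. E2F1 and E2F5 also met the study's stricter criteria, applied with the edgeR adjusted p in place of the study's own from Cuffdiff. These add a fold change over 1.5, a mean of at least 0.1 FPKM and a difference of at least 1 FPKM. In the lower direction 4.42% of tested genes met them. Such calls are not the study's own.

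**Figure D1:**
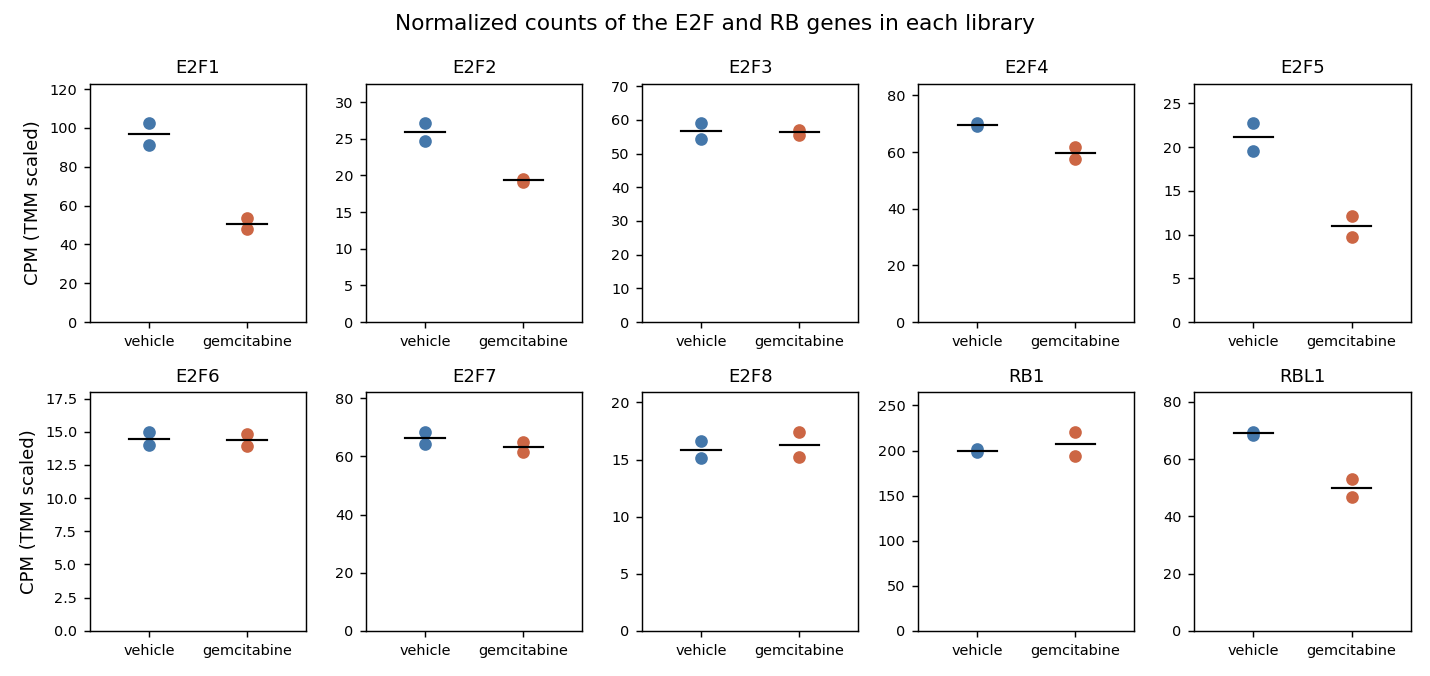
Normalized counts (CPM after TMM scaling, vertical axis from 0) of the 10 genes, with a point for each library and a line at the mean of each condition of 2 libraries. E2F1, E2F2, E2F4, E2F5 and RBL1 have both gemcitabine libraries below both vehicle libraries, and the conditions overlap for the other 5 genes.

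Of the activators, E2F1 changed most. E2F1 (ENSG00000101412, chr20:32263283-32274191, minus strand, hg19) drives S phase entry and can also induce apoptosis. Its fragments numbered 1487 and 1392 in vehicle and 667 and 727 in gemcitabine. On the CPM scale these were 102 and 91.4 against 48.1 and 53.4, so each gemcitabine library was well below each vehicle library. The log2 fold change was -0.93 (SE 0.0812, adjusted p = 1.05e-06, edgeR), a 1.91-fold fall. The study listed E2F1 among the differentially expressed genes it carried forward, and the fall given here comes from the same samples. E2F1 was taken by name, but with earlier results of these data known.

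E2F2 (chr1:23832930-23857725, minus strand), an activator with much the same targets, had 394 and 377 fragments in vehicle and 266 and 266 in gemcitabine. Its CPM were 27.1 and 24.8 against 19.2 and 19.5. E2F2 had a log2 fold change of -0.42 (SE 0.101, adjusted p = 0.00423, edgeR), and the conditions did not overlap. Without the first vehicle library the change was -0.35 and the adjusted p 0.108. E2F3 (chr6:20402110-20493945, plus strand), the activator whose loss is tolerated least in development, had 790 and 898 fragments in vehicle and 793 and 757 in gemcitabine. Its CPM of 54.4 and 59.0 against 57.1 and 55.6 overlapped. The log2 fold change was -0.01 with a 95% interval of -0.17 to 0.16, and its sign depended on the scaling. The intervals of E2F1 (-1.11 to -0.76) and of E2F2 (-0.64 to -0.21) did not overlap each other or reach the E2F3 estimate, but differences between genes were not tested.

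Among the repressors, E2F4 (chr16:67226058-67232821, plus strand), the main E2F of resting cells, had 1006 and 1068 fragments in vehicle and 856 and 782 in gemcitabine. Its CPM were 69.2 and 70.1 against 61.7 and 57.4. The log2 fold change of -0.23 (SE 0.0731, adjusted p = 0.0238, edgeR) was the smallest that passed. It did not pass with DESeq2 (adjusted p = 0.105), with library totals (0.234), without the filter on low counts (0.0505), or when vehicle replicate 1 (0.164), vehicle replicate 2 (0.199) or gemcitabine replicate 2 (0.0597) was left out.

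E2F5 (chr8:86089389-86129387, plus strand), the closest relative of E2F4, had 285 and 346 fragments in vehicle and 168 and 133 in gemcitabine. Its CPM were 19.6 and 22.7 against 12.1 and 9.77, with a clear gap between the conditions. Its log2 fold change was -0.95 (SE 0.133, adjusted p = 6.58e-05, edgeR), the largest fall by estimate, although its interval of -1.24 to -0.67 covers that of E2F1. The exons of E2F5 share 991 bases, or 16.5% of its exonic length, with RBIS on the opposite strand. The methods name no step that keeps strand, and without one reads from that stretch cannot be assigned to either gene. RBIS had 655 and 717 fragments in vehicle and 529 and 517 in gemcitabine, a log2 change of -0.28 (adjusted p = 0.0135, edgeR), and its part in the E2F5 value was not tested.

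E2F6 (chr2:11584501-11606303, minus strand), which lacks the domain that binds pocket proteins, had 203 and 228 fragments in vehicle and 206 and 190 in gemcitabine. Its CPM of 14.0 and 14.97 against 14.8 and 14.0 overlapped almost fully. The log2 fold change was -0.01 with a 95% interval of -0.27 to 0.25, so at this depth a change of up to about that size would not have been seen.

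The atypical E2Fs did not pass the test either. E2F7 (chr12:77415028-77459349, minus strand), a repressor induced in S phase and by p53, had 936 and 1041 fragments in vehicle and 852 and 884 in gemcitabine, or CPM of 64.4 and 68.3 against 61.4 and 64.9. This gave a log2 fold change of -0.07 (95% interval -0.23 to 0.09). E2F8 (chr11:19245610-19263167, minus strand), its partner, had 242 and 230 fragments in vehicle and 211 and 237 in gemcitabine, or CPM of 16.6 and 15.1 against 15.2 and 17.4. For E2F8 the log2 fold change was 0.04 (95% interval -0.22 to 0.30).

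The pocket proteins differed from each other in their values. RBL1 (p107; chr20:35624752-35724400, minus strand), whose gene is a known E2F target, had 1009 and 1044 fragments in vehicle and 647 and 723 in gemcitabine. Its CPM were 69.4 and 68.5 against 46.6 and 53.1, without overlap. RBL1 had a log2 fold change of -0.47 (SE 0.0797, adjusted p = 0.000345, edgeR). A noncoding gene on the opposite strand shares 3.58% of the exonic bases of RBL1 and had 8 to 12 fragments in a library. RB1 (chr13:48877880-49173572, plus strand), the retinoblastoma tumour suppressor, had 2876 and 3066 fragments in vehicle and 2695 and 3002 in gemcitabine. Its CPM of 198 and 201 against 194 and 220 overlapped. The log2 fold change was 0.05 (95% interval -0.10 to 0.21, adjusted p = 0.59, edgeR). Without gemcitabine replicate 1 it was 0.14 with an adjusted p of 0.0423, and without gemcitabine replicate 2 it was -0.04. RBL2 (p130), the pocket protein of resting cells, was not a member but belongs to the same family, and it had 1314 and 1351 fragments in vehicle and 1127 and 1255 in gemcitabine (log2 fold change -0.05, adjusted p = 0.653, edgeR).

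**Figure D2:**
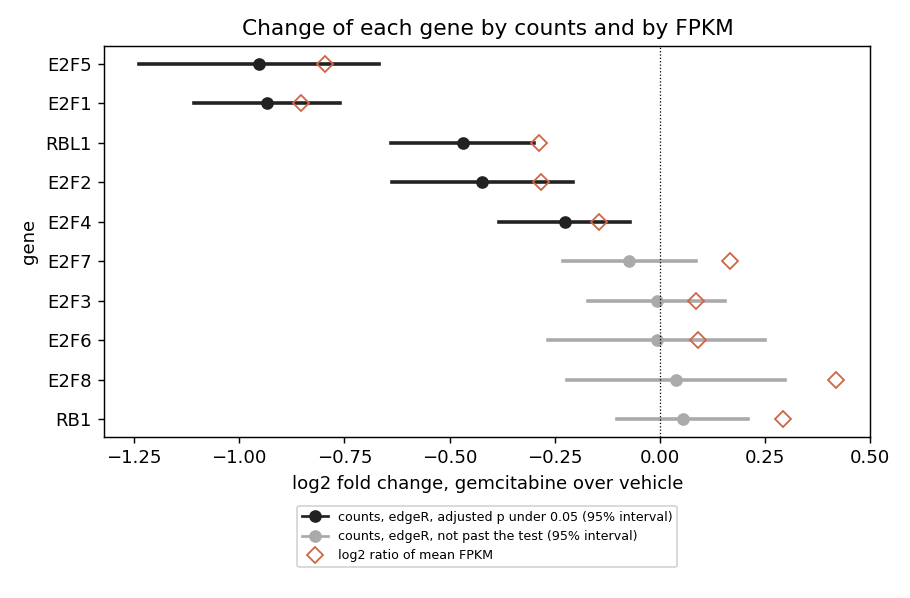
Log2 fold change of gemcitabine over vehicle (horizontal axis) for each gene from counts (circles with 95% intervals, black where the adjusted p is under 0.05 and grey where it is not) and from the ratio of mean FPKM (open diamonds), 2 libraries per condition. E2F5 and E2F1 lie near -0.95 and -0.93 by counts, and the diamonds of E2F7, E2F8, RB1 and, narrowly, RBL1 lie above their count intervals.

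Levels can be compared between genes only per length, so FPKM was used for their order. FPKM divides the fragments by transcript length in kilobases and by library depth, and Cuffdiff sums it over the isoforms of a gene. In vehicle RB1 was highest at 44.8 ± 0.555 FPKM (SD, n = 2), followed by E2F4 at 41.0 ± 1.16 and E2F1 at 35.7 ± 3.95. E2F5 (17.3 FPKM), RBL1 (13.6), E2F7 (12.1), E2F3 (10.7), E2F6 (7.99), E2F2 (5.33) and E2F8 (4.30) followed, and no neighbours in this order overlapped in their 2 libraries, although E2F2 reached down to 4.729 and E2F8 up to 4.729 FPKM. In gemcitabine RB1 (54.9 ± 10.3 FPKM), E2F4 (37.1 ± 1.36) and E2F1 (19.8 ± 1.85) stayed the highest. E2F5 moved from rank 4 to rank 7 at 9.99 FPKM, where E2F3 and RBL1 overlapped, and RBL1 and E2F5 overlapped.

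**Figure D3:**
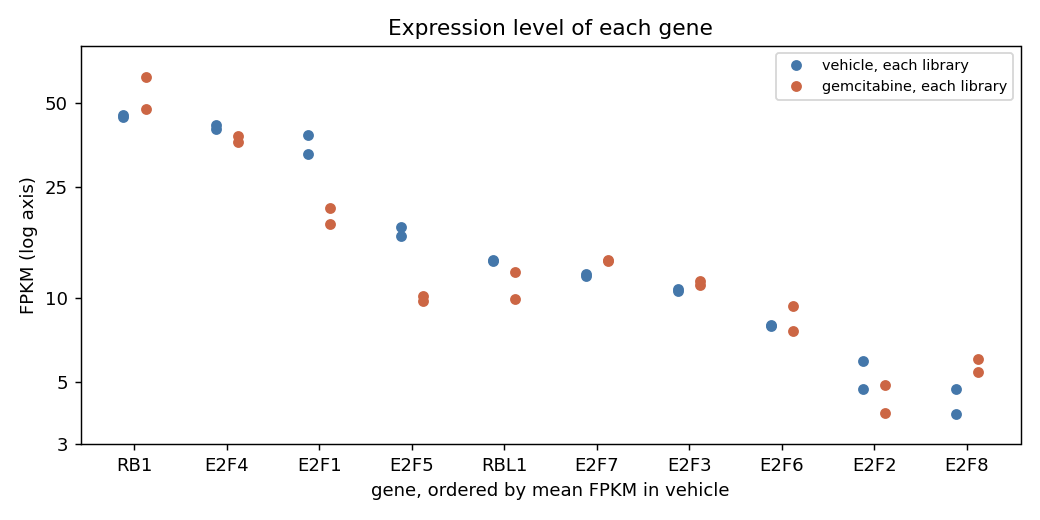
FPKM (log axis) of each gene in each library, ordered by the mean in vehicle, with vehicle and gemcitabine libraries side by side. RB1, E2F4 and E2F1 are the highest in both conditions, E2F1 falls from 32.9 to 38.5 FPKM in vehicle to 18.5 to 21.1 FPKM in gemcitabine, and E2F5 from 16.7 to 17.9 FPKM to 9.78 to 10.2 FPKM.

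The makeup of the E2F transcripts by FPKM differed between the conditions. E2F1 and E2F5 both fell on this scale, E2F5 from a mean of 17.3 to 9.99 FPKM. The log2 changes of E2F7, E2F8 and RB1 were higher by FPKM (0.17, 0.42 and 0.29) than by counts (-0.07, 0.04 and 0.05). E2F1 made up 28.4% and 24.7% of the summed FPKM of the 8 E2F genes in the vehicle libraries and 16.7% and 19.1% in the gemcitabine libraries. The activators together went from 39.7% and 37.2% to 31.2% and 33.1%, and the atypical E2Fs from 12.5% and 11.9% to 17.2% and 17.8%. The ratio of E2F1 to E2F4 FPKM was 0.957 and 0.786 in vehicle and 0.485 and 0.583 in gemcitabine, and the ratio of E2F1 to RB1 was 0.866 and 0.727 against 0.388 and 0.339. In each of these measures the conditions did not overlap, but with 2 libraries against 2 no exact test can pass a threshold of 0.05, and none was run.

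Counts and FPKM gave different values for some members. The log2 ratio of mean FPKM was 0.42 for E2F8 (4.73 and 3.86 FPKM in vehicle, 5.42 and 6.06 in gemcitabine), 0.17 for E2F7 (12.2 and 12.04 against 13.7 and 13.6) and 0.29 for RB1 (44.4 and 45.2 against 47.6 and 62.2). These lie above the count intervals given for these genes, and in none of them did limma on log2(FPKM + 1) pass. For E2F1 and E2F5 the FPKM ratios of -0.85 and -0.80 lay within the count intervals, beside -0.93 and -0.95 by counts. The order of the E2F5 gemcitabine libraries differed, with 168 and 133 fragments but 9.78 and 10.2 FPKM. For RBL1 (13.6 and 13.7 FPKM in vehicle, 9.90 and 12.4 in gemcitabine) the ratio was -0.29 and for E2F2 (4.73 and 5.94 against 4.90 and 3.87) -0.28, both smaller falls than by counts, with libraries of E2F2 overlapping on this scale. The RBL1 ratio also lay just above its count interval of -0.64 to -0.30. E2F4 went from 40.2 and 41.8 to 38.1 and 36.2 FPKM. E2F3 (10.6 and 10.8 against 11.2 and 11.6 FPKM) and E2F6 (7.98 and 7.998 against 9.37 and 7.64 FPKM) had ratios of 0.09 each. The scale differed too. The median of all genes was 0.01 by counts with TMM scaling. By limma it was 0.04 on log2(FPKM + 1), 0.09 on log2(FPKM + 0.1) and 0.10 on log2(FPKM + 1) after a filter at 0.1 FPKM. The part of this scale, or of the mix of isoforms, which enters FPKM but not the counts, was not tested.

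The DP partners and RBL2 were followed as a list, where 20.0% of all tested genes were lower and 18.5% higher. TFDP1, the main DP partner, fell from 4716 and 4919 fragments to 3686 and 3492 (log2 fold change -0.31, adjusted p = 0.00161, edgeR). TFDP2 had 1172 and 1259 fragments in vehicle and 1083 and 1118 in gemcitabine (log2 fold change -0.03, adjusted p = 0.779). Thus 1 of these 3 genes fell and none rose, and the call of TFDP1 was lost without vehicle replicate 1, without vehicle replicate 2 and in the limma fits on FPKM.

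In the kinase arm that acts on RB, 5 of 13 tested genes were higher and 5 lower (median -0.10). That is 38.5% each, against 18.5% higher and 20.0% lower over all tested genes. Without vehicle replicate 1 there were 3 higher and 2 lower, and without vehicle replicate 2 there were 2 and 1. Of the 6 kinase inhibitors in the list 3 rose. CDKN1A (p21), which blocks CDK2 and is induced by p53, rose by 1.29 (adjusted p = 1.67e-08, edgeR), from 1933 and 2056 fragments to 4580 and 4458. CDKN2B (p15) rose by 1.10 and CDKN2D (p19) by 0.97, the latter from only 28 and 39 fragments. CDKN1B (p27) stood at -0.21 on the log2 scale (adjusted p = 0.0619, edgeR) and CDKN2C (p18) at 0.07 (adjusted p = 0.499). The cyclins and kinases that phosphorylate RB mostly went the other way. CCNE2 had a log2 fold change of -0.50, CCNE1 of -0.42, CCND1 of -0.36, CDK6 of -0.29 and CDK4 of -0.27, and all passed the test. The exceptions were CCND3 (0.34) and CDK2 (0.31), which rose and are named after their values were seen. CDKN2A had a log2 fold change of -0.10 (95% interval -0.24 to 0.05). CCND2 had no fragments and was not tested.

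In the list of the Polycomb-type complex that holds E2F6, 6 of 8 genes were lower and none higher (median -0.35), against 20.0% of all tested genes lower, while E2F6 itself did not pass. MGA, the scaffold of that complex, had a log2 fold change of -0.61, CBX3 (HP1 gamma) of -0.54 and YAF2 of -0.49. PCGF6 (-0.20, adjusted p = 0.153, edgeR) and RING1 (-0.10, adjusted p = 0.477) did not pass. With library totals 4 of the 8 were lower, without vehicle replicate 1 or without vehicle replicate 2 there were 3, and limma on FPKM called none of them.

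Of 11 co-repressors and binding proteins of RB, 3 were lower and 2 higher (median -0.13). These shares of 27.3% and 18.2% stand beside 20.0% lower and 18.5% higher over all tested genes. SMARCA4 (BRG1), a chromatin remodeller, had a log2 fold change of -0.62, HDAC2 of -0.46 and RBAK of -0.26, and ARID4A rose by 0.57 and HDAC1 by 0.28. Of 7 genes for turnover of E2F and RB, CUL4A (-0.62), SKP2 (-0.29) and CCNF (-0.23) were lower and FZR1 rose by 0.32, with a median of -0.17. Of the 7, 42.9% were lower and 14.3% higher, beside the same 20.0% and 18.5% over all tested genes. With either vehicle library left out, 1 of these 7 was lower and 0 were higher by edgeR, and of the RB co-repressors none was higher, and without gemcitabine replicate 2, 5 of the co-repressors were lower. In the MuvB core with its partners, which forms DREAM with p130 and E2F4, 3 of 7 genes were higher (LIN37 by 0.73, LIN54 by 0.41 and MYBL2, or B-MYB, by 0.22) and RBBP4 was lower (-0.24), with a median of 0.13. The shares were 42.9% higher and 14.3% lower, against 18.5% and 20.0% of all tested genes. LIN37 had 49.6 and 88.3 fragments in vehicle and 115.6 and 95.3 in gemcitabine. FOXM1, which takes over from B-MYB in G2, had a log2 fold change of 0.13 (95% interval -0.01 to 0.26). RBBP4 lost its call with library totals and with either vehicle library left out, and without vehicle replicate 1 only 1 gene of this list was higher.

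The listed E2F target genes of the G1/S transition, many of them for DNA replication, fell more often than they rose. Of 42 tested genes, 22 were lower and 7 higher, or 52.4% and 16.7% against 20.0% and 18.5% of all tested genes, with a median of -0.24 against 0.01. Without vehicle replicate 1 there were 14 lower and 1 higher, and without vehicle replicate 2 there was 1 higher. The largest falls were UNG, which removes uracil from DNA (-1.55, from 1967 and 1997 to 589 and 665 fragments), CDCA7 (-1.26) and MCM5 of the replicative helicase (-1.14). All 6 subunits of that helicase, MCM2 to MCM7, fell, by 0.47 to 1.14 on the log2 scale with adjusted p of 7.16e-05 or less (edgeR); they were singled out after their values were seen. The largest rises were TK1 (0.49) and TYMS (0.23), both enzymes that make thymidine nucleotides, and MYBL2 (0.22), which is also in the MuvB list. An E2F word was in the reference promoter of 21 of the 35 list genes with an entry, and of 6.28% of all tested genes with an entry. Of those 21 list genes, 12 were lower and 3 higher (median -0.34), and of the 14 without a word 6 were lower and 3 higher (median -0.18), with no test of the difference. Over all tested genes with an entry, 26.25% of those with a word were lower and 13.75% higher. Of those without a word 20.4% were lower and 18.9% higher.

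For the listed genes of G2 and mitosis, the direction with more calls depended on the scaling. Of 30 genes, 9 were lower and 5 higher (median -0.02). The share lower was above the 20.0% of all tested genes, and the share higher was below the 18.5%. PLK1 (-0.65), CENPF (-0.63) and KIF20A (-0.40) were the largest falls, and CDK1 (0.67), CDC25C (0.62) and NEK2 (0.40) the largest rises. With library totals 11 were higher and 8 lower, and leaving out a library gave 4 (vehicle replicate 2) to 13 lower and 3 (either vehicle replicate) to 11 (gemcitabine replicate 1) higher. Among the apoptotic and stress targets of E2F1, 5 of 12 were higher and 1 lower (median 0.28). That is 41.7% and 8.33%, against 18.5% and 20.0% of all tested genes. The higher count was 3 with DESeq2, 8 with library totals, 1 without vehicle replicate 1 and 3 without vehicle replicate 2. TP53INP1 rose by 1.86, APAF1 by 0.46 and PMAIP1 (NOXA) by 0.43, and BCL2L11 (BIM) had a log2 fold change of -0.55. Whether E2F1 or another factor drove these changes was not tested.

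**Figure D4:**
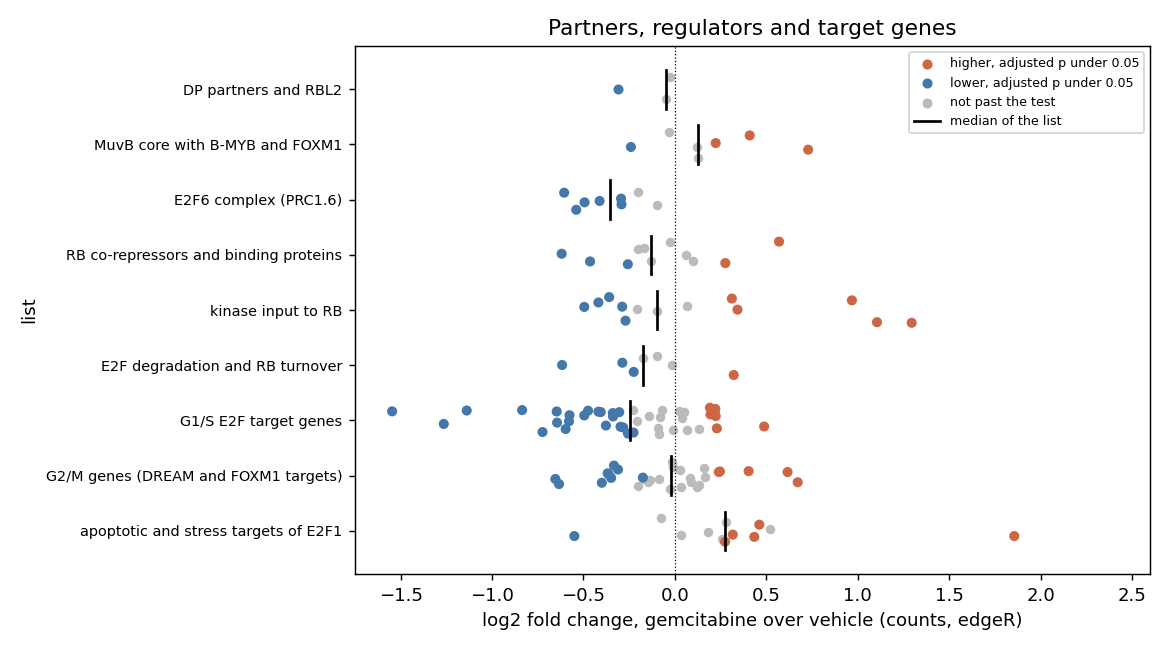
Log2 fold change (horizontal axis) of every tested gene in the lists of partners, regulators and targets, with blue for lower and orange for higher at an adjusted p under 0.05, grey for not past the test and a black bar at the median of each list. In the G1/S target list 22 of 42 genes are lower, in the E2F6 complex 6 of 8, and TP53INP1 at 1.86 is the largest rise.

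Among the members and list genes, 140 in all, the genes whose gene-centred log2 CPM over the 4 libraries lay closest to E2F5 were MCM5, CDCA7 and GINS2, with root mean square differences of 0.177, 0.197 and 0.198. For E2F1, added after its values were seen, they were MCM6 (0.0716), MCM3 (0.110) and MCM5 (0.119). With 4 libraries in 2 conditions, genes with a similar size of fall lie close by construction.

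Open chromatin at the starts of the members was read from the peak list of each condition. The vehicle list of 9606 peaks had a peak within 1 kb of a start of E2F3, RB1 and RBL1, or 3 of 10 members, where 27.8% of the tested genes had one. The gemcitabine list of 10695 peaks had one at E2F1, E2F3, E2F6, E2F7 and RBL1, or 5 of 10, where 32.2% of the tested genes had one. There was 1 library per condition, so these are descriptions with no test, and absence from a list says only that no peak passed the caller's threshold (a score of 50, or a p-value of 1e-05).

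The E2F1 start lay inside a gemcitabine peak at chr20:32273949-32274693 (hg19) with a score of 72.2, and the nearest vehicle peak was 45746 bases away. E2F1 transcript fell in the same treatment. RBL1 had a peak over its start in both lists, chr20:35724107-35724743 with a score of 62.5 in vehicle and chr20:35723801-35724948 with a score of 126.5 in gemcitabine, and its transcript fell too. E2F3 had a peak in both lists, with a score of 87.8 in vehicle and 118 in gemcitabine, and no passing change in RNA. The peaks of E2F6 (51.1) and E2F7 (51.9) in gemcitabine and of RB1 (51.7) in vehicle scored just above the threshold of 50. At a score of 100 or more no member had a peak in vehicle, and E2F3 and RBL1 had one in gemcitabine. At that score 8.005% of the tested genes had a peak within 1 kb in vehicle and 9.905% in gemcitabine. Scores of the lists depend on the depth of each library and were not compared between conditions. E2F2, E2F4, E2F5 and E2F8 had no peak within 5 kb of a start in either list.

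**Figure D5:**
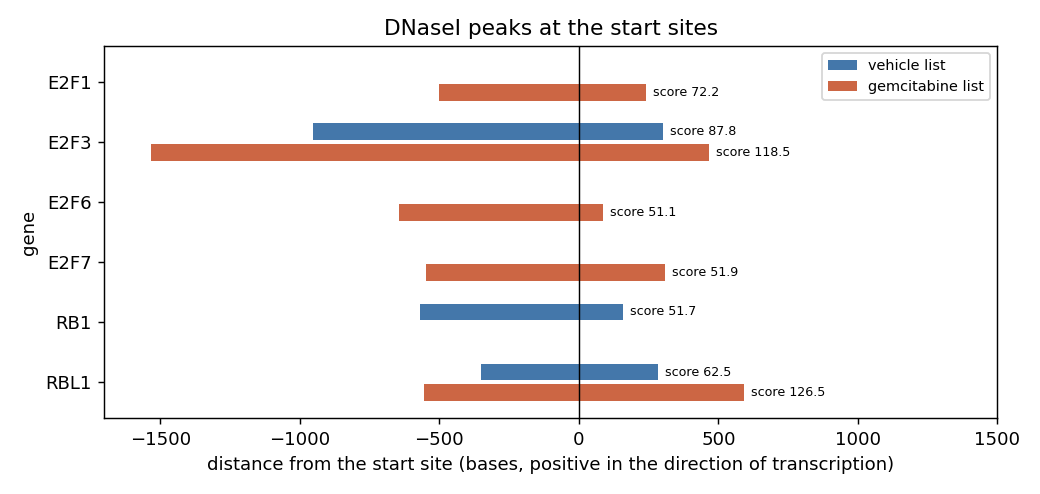
Position of the DNaseI peaks within 1 kb of the start sites of the members (horizontal axis, distance from the start in bases, positive in the direction of transcription), with blue bars for the vehicle list and orange bars for the gemcitabine list and the score of each peak beside it, 1 library per condition. E2F1, E2F6 and E2F7 have a bar in the gemcitabine list only, RB1 in the vehicle list only, and E2F3 and RBL1 in both.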

How the data were processed

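Cells labelled PANC1 were grown for 24 h and treated for 48 h with vehicle or 50 nM gemcitabine. The authors prepared mRNA libraries by an Illumina guide, and the methods name no step that keeps strand. They mapped the single-end reads to the hg19 build (TopHat2 2.0.8) and quantified protein-coding genes of Gencode 15 (Cuffdiff 2.0.2). The deposited table gives estimated counts (fragments assigned to each gene; 89.5% of values lie within 0.001 of a whole number) and FPKM, both made by the authors with Cuffdiff. Cuffdiff marked 275 genes as failed in at least 1 library, none of them a member. For DNaseI-seq the authors deposited MACS peak lists with a score, which rises as the p-value falls and whose minimum of 50 corresponds to the caller's limit of 1e-05. The table's index of libraries cannot be tied to the label's replicate numbers, so numbers here only name libraries.

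Estimated counts were rounded. A gene entered the test when its fragments summed to 10 or more. The fit used edgeR 4.0.16 in R 4.3.3 (TMM factors, quasi-likelihood), and p-values were adjusted by Benjamini-Hochberg over all tested genes. The p-values measure the spread between 2 libraries per condition, which the methods call biological replicates. The fit draws the spread of each gene toward that of all tested genes, so they do not rest on its own libraries alone. SE and 95% intervals are on the log2 scale. The test was tested on simulated data. Alternatives were DESeq2 1.42.0, limma 3.58.1 on log2(FPKM + pseudocount of 1 or 0.1), other scalings and filters, and each library left out. Start sites and exons are from Gencode 44 carried to hg19, and promoters from RefSeq on GRCh38.p14. Gene names were matched by Ensembl identifier for 19619 of 20461 genes.

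The members and the 9 gene lists were chosen with earlier results of these data known. From each list the text names up to 3 largest rises and 3 largest falls past an adjusted p of 0.05, with RBL2, TFDP1, TFDP2, CDKN2A, CDKN1A, CCND1, CDK4, CDK6, CCNE1, CCNE2, MYBL2 and FOXM1 whatever their values. CCND3, CDK2, CDKN1B, CDKN2C, PCGF6, RING1 and the other MCM genes were named after their values were seen. The list genes UHRF1 and CASP8AP2 were not matched, and CCND2 and HRK were too low to test.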

Additional observations from a re-analysis of the deposited data

How the results depend on the processing

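The falls of E2F1, E2F5, E2F2 and RBL1 kept their direction and an adjusted p under 0.05 with DESeq2, RLE size factors, library totals and both other filters. Leaving out a library gave ranges of -1.01 to -0.84 for E2F1, -1.12 to -0.80 for E2F5, -0.48 to -0.35 for E2F2, -0.28 to -0.17 for E2F4, -0.56 to -0.38 for RBL1, -0.058 to 0.060 for E2F3, -0.052 to 0.052 for E2F6, -0.11 to -0.02 for E2F7, -0.059 to 0.13 for E2F8 and -0.038 to 0.14 for RB1. E2F4 lost its call with DESeq2 (-0.22), library totals (-0.12) and no filter (-0.22). With limma on log2(FPKM + 1), on log2(FPKM + 0.1) and on log2(FPKM + 1) after a filter at 0.1 FPKM, E2F2 (-0.23, -0.28, -0.23), E2F4 (-0.14, -0.14, -0.14) and RBL1 (-0.27, -0.29, -0.27) did not pass. E2F1 did not pass in the first 2 (-0.82, -0.85), nor E2F5 in the second (-0.79). The signs of E2F3, E2F6 and E2F7 turned with library totals (0.10, 0.10, 0.037) and with limma (0.079 and 0.085 for E2F3, 0.075 and 0.083 for E2F6, 0.16 and 0.17 for E2F7), and those of E2F3 and E2F6 with filterByExpr (0.0019 and 0.0024), all without passing.

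In the same order of limma settings the members called were 1, 0 and 2 (3 to 6 with a library left out), those meeting the study's criteria 1, 0 and 2 (2 and 2 with a library left out), and all genes called 472, 0 and 1313 against 5726 (2609 to 6656 with a library left out). On log2(FPKM + 0.1), where limma called 0 genes, 4665 genes and 2 members had an unadjusted p under 0.05. The G1/S list had 2, 0 and 5 lower and 0, 0 and 1 higher (14 to 24 lower and 1 to 7 higher with a library left out). The G2/M list had 2, 0 and 1 lower and 0, 0 and 2 higher (4 to 13 lower and 3 to 11 higher with a library left out), and 11 higher with library totals. Over the other lists 111 of the alternative counts stayed within 1.5 times the reported count and 57 did not. At a peak score of 100, 0 members had a region in vehicle and 2 in gemcitabine, beside 8.005% and 9.905% of the tested genes. The cause of these differences was not tested. Leaving out a library leaves 1 sample in a condition, assumed to vary like the other 2. No paired analysis was possible because nothing links the library index of the table to the numbers in the sample titles.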
